A study of Mus musculus with 8 samples.

Results

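The comparison described here is the response of dorsal skin to imiquimod in mice labelled as knockouts of the IL-22 receptor, without alloferon. It uses 4 of the 8 expression arrays of the series: the arrays titled KO_CTRL and KO_CTRL-B, without imiquimod (IMQ), and the arrays titled KO_IMQ and KO_IMQ_B, with it. The letter B sets the arrays in pairs, so KO_IMQ was set against KO_CTRL (the plain pair) and KO_IMQ_B against KO_CTRL-B (the B pair). A gene belonged to the core response if its difference had the same direction in both pairs, which held for 13708 of 22180 genes (61.8%). The knockout arrays carry the strain label B6.Cg-Il22ra1tm1.1Koll/J and the wild-type arrays C57BL/6, all male. The protocol gave 83.3 mg of 5% IMQ cream a day on the back and ears from day 1 to day 7, followed after 6 h by vehicle cream or alloferon cream. Outside the comparison stand a wild-type pair (WT_CTRL, WT_IMQ) and a knockout pair with alloferon (KO_Allo, KO_IMQ_Allo), each of 1 array against 1. The study states 4 mice per group. The sources used here do not say whether an array holds RNA of 1 mouse or of several, or what the letter B stands for. The p-values therefore rest on how far these 4 arrays scatter, for the gene itself and over all genes, and that scatter may be technical.

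Imiquimod activates Toll-like receptor 7, an endosomal sensor of single-stranded RNA, and repeated application to mouse skin gives a psoriasis-like inflammation with a thickened, scaling epidermis and an infiltrate of neutrophils and macrophages. IL-23 and IL-17 from lymphocytes, IL-36 from keratinocytes and IL-22 acting on keratinocytes are known links in that inflammation. The IL-22 receptor pairs the chain encoded by Il22ra1 with IL-10 receptor beta, and its signal is known to induce antimicrobial proteins and wound keratins and to restrain terminal differentiation of keratinocytes.

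Il22ra1, the targeted gene, was measured by a probe set for the whole transcript. It read 8.91 on KO_CTRL, 8.59 on KO_CTRL-B, 8.88 on KO_IMQ and 8.91 on KO_IMQ_B, against 8.23 on WT_CTRL and 8.64 on WT_IMQ, all as log2 expression values. The arrays labelled KO were thus not lower than the wild-type arrays with the same IMQ status, and this probe set cannot serve as a check of the genotype. The sources used here do not say which exons the allele lacks or in which cells, and KO below means the label.

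Imiquimod raised genes of the cornified envelope, alarmins, IL-36 and IL-1 cytokines and myeloid cell markers in the knockout skin, and lowered fewer genes, led by the keratin gene Krt77. In whole skin a change in the number of cells of a type and a change in RNA per cell cannot be told apart. With limma and Benjamini-Hochberg adjustment over all 22180 genes, 138 genes (0.622% of those tested) rose and 14 (0.0631%) fell at an adjusted p under 0.05. For these 152 genes (0.685%) the arrays did not overlap between the groups, in a table where 22.4% of all genes lay wholly higher and 22.3% wholly lower with IMQ. An unadjusted p under 0.05 was found for 2746 genes (12.4%), 1661 higher and 1085 lower. Counts of called members in the lists and families below stand beside 0.622% of all genes called higher and 0.0631% called lower. Counts at an unadjusted p stand beside these 1661 and 1085 of 22180 genes. The number of calls rests on single arrays: it was 0 without KO_CTRL, 0 without KO_IMQ, 92 without KO_CTRL-B, of which 35 were among the 152, and 7 without KO_IMQ_B, of which 5 were.

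The pairs were alike in direction for the large differences and unlike in several tissue genes. Across the 22180 genes the differences of both pairs correlated with Pearson's r = 0.577, a description over genes that share arrays and normalization. The same direction was measured in both pairs for 6665 genes higher with IMQ (30.0% of genes) and 7043 lower (31.8%). A difference of at least 1 log2 unit (2-fold) in each pair was measured for 297 genes higher (1.34%) and 100 lower (0.451%), and it was this set that held all 152 called genes. Just inside that limit lay Lrrc25, at 1.002 in the plain pair and 1.001 in the B pair, and just outside lay Tlr6, at 1.10 and 0.998. The plain pair gave more differences of at least 1 log2 unit, with 1089 genes (4.91%) against 693 (3.12%) in the B pair. The control arrays differed from each other by that much at 631 genes (2.84%) and the IMQ arrays at 203 (0.915%).

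**Figure D1:**
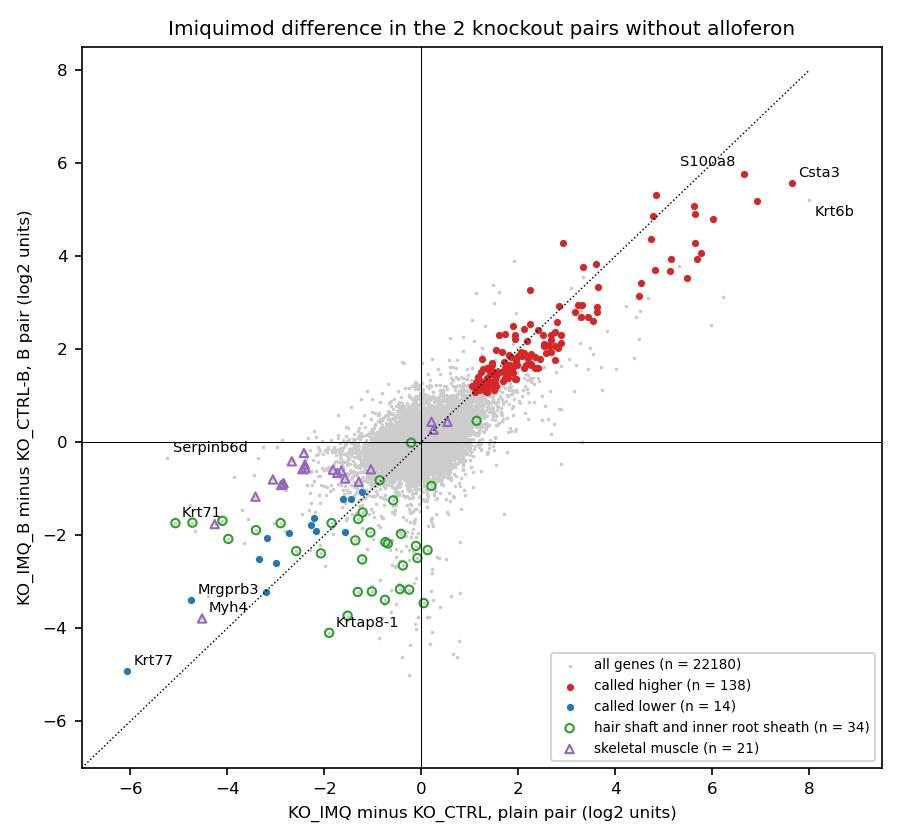
Each point is 1 of 22180 genes, with its IMQ difference in the plain pair (KO_IMQ minus KO_CTRL) on the x axis and in the B pair (KO_IMQ_B minus KO_CTRL-B) on the y axis, both in log2 units; the dotted line marks equal differences. The 138 genes called higher (red) and 14 called lower (blue) lie away from 0 in both pairs, while most muscle genes (triangles) differ more in the plain pair and many hair genes (open circles) more in the B pair.

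Genes of the cornified envelope gave many of the largest rises. The small proline-rich proteins are cross-linked into the envelope of keratinocytes under stress, and 4 of 12 measured genes rose, with a median over the 12 of 3.50 log2 units, against -0.01 over all genes. Sprr2d read 3.76 and 5.21 on KO_CTRL and KO_CTRL-B and 10.69 and 10.39 on KO_IMQ and KO_IMQ_B, a rise of 6.05 ± 0.48 log2 units (SE; limma adjusted p = 0.0297). Sprr1b read 6.65 and 6.52 without IMQ and 11.43 and 11.38 with it, a rise of 4.82 ± 0.13 (adjusted p = 0.00523), the smallest adjusted p of all genes. The control level of Sprr2d thus varied more between the pairs than that of Sprr1b, while both IMQ arrays were far above both controls for each gene. Sprr2e rose by 4.81 ± 0.48 (adjusted p = 0.0396) and Sprr2b by 4.26 ± 0.28 (adjusted p = 0.0234). Of the others, Sprr2g (3.56, adjusted p = 0.0753), Sprr2h (3.44, adjusted p = 0.0873) and Sprr2f (2.66, adjusted p = 0.175) did not pass the test. Sprr2 genes are close copies of each other, as are members of the Lce3, Stfa, Serpinb3 and Skint families, so a probe set may read more than 1 of them.

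The promoters of the 4 called small proline-rich genes are shown because these genes lie together on chromosome 3 and rose together. Each line gives 210 bases before the RefSeq start of the gene (GRCm38.p6), 5′ to 3′ on the gene's strand, with matches to the AP-1 motif TGANTCA and to TATAAA in capitals; Sprr2d is at chr3:92338930-92339139 (+), Sprr2e at chr3:92351933-92352142 (+), Sprr2b at chr3:92316495-92316704 (+) and Sprr1b at chr3:92438780-92438989 (-).
Sprr2d: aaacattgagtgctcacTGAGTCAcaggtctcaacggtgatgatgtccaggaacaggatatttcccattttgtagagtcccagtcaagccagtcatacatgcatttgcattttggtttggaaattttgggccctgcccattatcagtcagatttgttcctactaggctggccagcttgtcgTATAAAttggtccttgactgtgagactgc
Sprr2e: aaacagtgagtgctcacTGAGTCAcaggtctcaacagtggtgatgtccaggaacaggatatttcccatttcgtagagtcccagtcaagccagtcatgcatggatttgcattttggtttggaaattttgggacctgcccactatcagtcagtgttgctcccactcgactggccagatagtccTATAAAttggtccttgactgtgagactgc
Sprr2b: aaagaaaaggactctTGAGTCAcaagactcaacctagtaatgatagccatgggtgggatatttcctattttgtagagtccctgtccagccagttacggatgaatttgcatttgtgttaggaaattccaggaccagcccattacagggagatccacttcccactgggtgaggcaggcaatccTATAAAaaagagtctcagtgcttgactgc
Sprr1b: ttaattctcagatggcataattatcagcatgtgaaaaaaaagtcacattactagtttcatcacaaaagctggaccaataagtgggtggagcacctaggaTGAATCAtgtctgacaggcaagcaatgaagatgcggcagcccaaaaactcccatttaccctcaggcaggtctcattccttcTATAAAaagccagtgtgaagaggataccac
The AP-1 match starts 193 bases before the start in Sprr2d and Sprr2e, 195 in Sprr2b and 111 in Sprr1b, and the TATAAA match 29 bases before it in the Sprr2 genes shown and 30 in Sprr1b. Searched on both strands over 250 bases before the start, TGANTCA was found in 8 of 10 measured Sprr genes with a promoter in the table and in 6.87% of 27025 mouse promoters. It was found in 10 of the 109 called higher genes with a promoter in the table (9.17%) and in 0 of the 6 Lce3 genes. Sprr2 genes are close copies, so the 10 Sprr promoters are not independent of each other. The motif of STAT factors, TTCNNNGAA, was found in 11 of the 109 (10.1%) and in 7.18% of all promoters, and in 0 of the 10 Sprr promoters. The motif of C/EBP factors, TTGCNNAA, was found in 18 of the 109 (16.5%) and in 9.55% of all promoters. It was found in 4 of 11 called lower genes with a promoter (36.4%) and in 0 of the 10 Sprr promoters. A match is a description of the letters and not a binding site.

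The LCE3 genes encode late cornified envelope proteins that are known from repair and psoriasis, and 5 of 6 rose, with a median of 3.77 log2 units over the 6. Lce3a read 4.41 and 3.27 on the controls and 9.26 and 8.58 with IMQ, and rose by 5.08 ± 0.43 (adjusted p = 0.0322). Lce3f rose by 4.91, Lce3e by 4.41, Lce3d by 3.14 and Lce3c by 2.88, while Lce3b measured 2.43 (adjusted p = 0.0876). The LCE1 genes, which belong to ordinary skin barrier, had a median of 0.92 with 0 of 11 called (5 higher at an unadjusted limma p under 0.05). Among inhibitors of proteases, the stefin gene Csta3 gave the largest rise of the comparison, from 2.67 and 3.77 to 10.32 and 9.35, or 6.61 ± 0.47 log2 units (97.9-fold; adjusted p = 0.0266). The stefins Stfa1 and Stfa2l1 rose by 4.5 and 3.72, as did the clade B serpins Serpinb3a, by 5.28 ± 0.21 (adjusted p = 0.00909), and Serpinb3d, by 2.07. The list of stefins and cystatins had 3 called of 10 and that of clade B serpins 2 of 14, where 0.622% of all genes were called higher. Over all 14 measured genes with a Cstdc, Csta or Stfa symbol, a group picked after the values were seen, 5 rose, with a median of 1.46.

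Wound keratins were high on both IMQ arrays, and the control levels of Krt16, Krt6b and Krt6a differed between the pairs. Of 4 measured wound keratins 1 passed limma's test, with a median over the 4 of 4.54 log2 units and a lowest member at 0.50. Krt16, induced in hyperproliferating epidermis, read 5.89 and 7.19 without IMQ and 11.91 and 11.99 with it, and rose by 5.41 ± 0.43 (adjusted p = 0.0296). Krt6b read 4.67 and 7.49 without IMQ and 12.66 and 12.71 with it, a difference of 6.60 ± 0.89 that did not pass the test (adjusted p = 0.0653). Krt6a measured 3.67 ± 0.55 (adjusted p = 0.0821). For Krt16, Krt6b and Krt6a alike KO_CTRL-B lay above KO_CTRL by more than the IMQ arrays differed. Rptn, which encodes the cornified envelope protein repetin, showed the same order, at 6.41 and 8.14 without IMQ and 11.73 and 11.94 with it (adjusted p = 0.0547).

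Genes of the resting epidermis went both ways. Among 23 measured keratins and differentiation genes, 2 rose and 3 fell. Their median was 0.44 log2 units, with 11 higher and 3 lower at an unadjusted limma p under 0.05. Krt77, a keratin of resting epidermis, gave the largest fall of the comparison: it read 12.43 and 11.47 without IMQ and 6.36 and 6.55 with it, and fell by 5.49 ± 0.33 log2 units (adjusted p = 0.0232). Flg2, a relative of filaggrin, fell by 2.62 ± 0.28 (adjusted p = 0.0425), and the basal and follicle stem cell keratin Krt15 fell by 2.03 ± 0.17 (adjusted p = 0.0311). The basal keratin Krt14 rose by 1.57 and the desmosomal cadherin Dsg1b by 1.49. The main suprabasal keratins did not pass the test: Krt1 measured 0.99 ± 0.17 (adjusted p = 0.104) and Krt10 measured -0.02. Lor, which encodes loricrin, measured -0.17 and Flg, filaggrin, 0.84 ± 0.33 (adjusted p = 0.402).

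**Figure D2:**
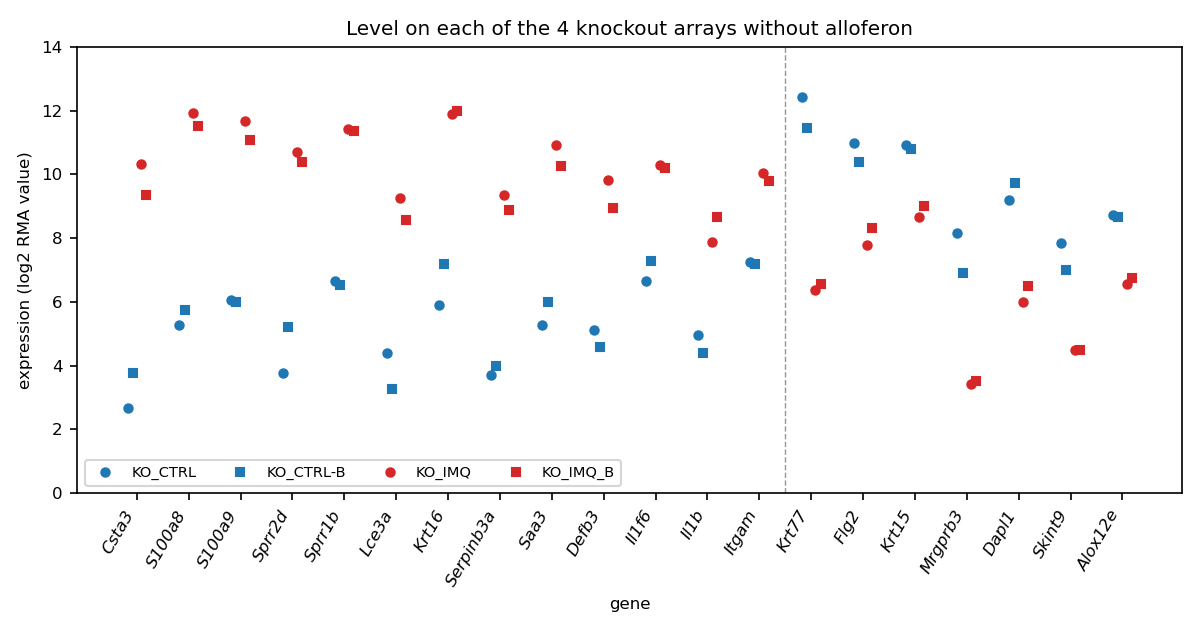
Log2 expression value (y axis) of 20 genes on each of the 4 arrays: circles are the plain arrays and squares the B arrays, blue without IMQ and red with it; the dashed line separates genes higher with IMQ from genes lower with it. The genes shown were all called, and blue and red points do not overlap for any called gene. Krt77 drops from 12.43 and 11.47 to 6.36 and 6.55.

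Among 21 enzymes of the skin barrier lipids, 3 rose and 1 fell. Sdr9c7 (1.75), an oxidoreductase of the acylceramide pathway, Degs2 (1.77), a sphingolipid hydroxylase, and Cers3 (1.34), the synthase of ceramides with very long chains, rose. Alox12e, an epidermal lipoxygenase, read 8.72 and 8.67 without IMQ and 6.55 and 6.76 with it, and fell by 2.04 ± 0.14 (adjusted p = 0.0244). In the sebaceous gland list of 16 genes, the desaturase Scd3 fell by 2.34 and the fatty acid binding protein gene Fabp5, also expressed in keratinocytes, rose by 1.55. Several genes of lipid and retinoid handling rose that were on no list and were picked after their values were seen: the sphingomyelinase Smpd3 (1.66), the cholesterol sulfotransferase Sult2b1 (1.24), the retinoic acid binding protein gene Crabp2 (1.39), and the phospholipases Pla2g4d (2.57) and Pla2g4e (2.42), which were 2 of 5 measured Pla2g4 genes.

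Proteases of the epidermis form a further group, also picked after the values were seen. Kallikrein-related peptidases cut desmosome proteins during shedding of the horny layer, and 5 of 24 measured Klk genes rose: Klk13 by 3.81, Klk14 by 3.55, Klk6 by 3.21, Klk9 by 3.07 and Klk8 by 1.80. Klk14 read 4.24 and 4.32 without IMQ and 7.58 and 8.08 with it. Of 7 membrane serine proteases of the Tmprss11 family 3 rose, led by Tmprss11b, which read 3.77 and 4.41 without IMQ and 8.91 and 8.34 with it (4.54 ± 0.30, adjusted p = 0.0234). Tmprss11g rose by 3.49 and Tmprss11a by 2.77. In both families the median member moved less, at 0.42 over the Klk genes and 1.56 over the Tmprss11 genes.

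Genes of antimicrobial proteins, many of them known targets of IL-22, rose on arrays labelled KO for its receptor. Of 17 antimicrobial and alarmin genes 7 rose, with a median of 1.89. S100a8, a subunit of the alarmin calprotectin, read 5.27 and 5.74 without IMQ and 11.92 and 11.52 with it, and rose by 6.21 ± 0.23 (74.1-fold; adjusted p = 0.00909). Its partner S100a9 rose by 5.34 ± 0.22 (adjusted p = 0.00909). The beta-defensin genes Defb3 and Defb14 rose by 4.55 and 3.0, and Defb4 measured 1.89 (adjusted p = 0.0873). For each called gene of the list both IMQ arrays lay above both controls, as held for all 138 genes called higher and for 22.4% of all genes. Saa3, an acute-phase protein gene, rose from 5.28 and 6.00 to 10.93 and 10.28 (4.96 ± 0.33, adjusted p = 0.0238). Slpi, an inhibitor of neutrophil elastase, rose by 2.26 and the chitinase-like gene Chil3 by 2.98. Lcn2, which encodes the iron-trapping lipocalin 2, read 6.47 and 6.14 without IMQ and 9.08 and 8.14 with it, and did not pass (2.31 ± 0.34, adjusted p = 0.0780). Of 22 keratinocyte genes known to be inducible by IL-22, a list that overlaps the antimicrobial one, 8 rose and 0 fell, with a median of 2.10. The 8 were S100a8, S100a9, Defb3, Defb14, Saa3, Krt16, Il1f6 and Il1f9.

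Among cytokines, the IL-36 and IL-1 ligands rose. Of 13 measured family members 5 rose, with a median of 1.48. Il1f6, which encodes IL-36 alpha, read 6.67 and 7.30 without IMQ and 10.29 and 10.21 with it, and rose by 3.27 ± 0.24 (adjusted p = 0.0266). Il1f8 (IL-36 beta) rose by 2.49 ± 0.15 (adjusted p = 0.0232) and Il1f9 (IL-36 gamma) by 2.41 ± 0.22 (adjusted p = 0.0358). These epidermal ligands of 1 receptor were all higher on both IMQ arrays than on both controls, as was every gene called higher. Il1b read 4.96 and 4.39 without IMQ and 7.89 and 8.68 with it, and rose by 3.61 ± 0.33 (adjusted p = 0.0358), and Il1a rose by 2.01. The antagonists measured less: Il1f5, the IL-36 receptor antagonist, gave 1.48 (adjusted p = 0.0547) and Il1rn, the IL-1 receptor antagonist, 1.16 (adjusted p = 0.124). The IL-36 receptor gene Il1rl2 measured 0.33 (adjusted p = 0.457).

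No gene of the IL-23, IL-17 and IL-22 axis passed limma's test. Of 12 genes for IL-23, IL-17 and their receptors 0 passed, with a median of 0.37 and 4 genes higher at an unadjusted p under 0.05. In the IL-22 receptor and IL-20 list 0 of 13 passed, with a median of 0.45, 7 higher and 2 lower at an unadjusted p under 0.05. Il22 read 1.76 and 1.80 without IMQ and 1.81 and 1.81 with it. These levels lie far below the lower quartile of all genes, 4.69 to 4.73 on these arrays, so whether Il22 changed cannot be judged here. Il17a read 4.23 and 4.16 without IMQ and 4.81 and 4.11 with it, so its IMQ arrays lay on either side of the controls. Il23r, the receptor gene of IL-23, read 3.94 and 4.24 without IMQ and 6.12 and 5.38 with it (1.66 ± 0.28, adjusted p = 0.102). Il20ra, a receptor chain for IL-19, IL-20 and IL-24, read 8.39 and 7.10 without IMQ and 4.81 and 5.45 with it, the largest difference of the list (-2.62 ± 0.47, adjusted p = 0.114). Il22ra2, the soluble IL-22 binding protein, measured -0.90 ± 0.17 (adjusted p = 0.134).

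Myeloid markers rose. In the neutrophil list 6 of 19 genes rose, with a median of 1.53, among them the chemokine receptor gene Cxcr2, by 2.33 ± 0.16 (adjusted p = 0.0244), the G-CSF receptor gene Csf3r, by 2.27 ± 0.14 (adjusted p = 0.0232), and the lectin gene Clec4d, by 2.03. The other members called were S100a8, S100a9 and Itgam, of which S100a8 and S100a9 are also made by keratinocytes. The neutrophil surface gene Ly6g did not differ in this way, at 3.22 and 3.48 without IMQ and 3.16 and 3.27 with it. These Ly6g levels lie below the lower quartile of all genes, where a change may not be measured. The granule protease gene Elane measured -0.27. The level summed over the 19 genes, on the linear scale, was 816 and 818 without IMQ and 9712 and 7727 with it, and over the 17 other than S100a8 and S100a9 it was 711 and 700 without IMQ and 2572 and 2636 with it.

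In the monocyte and macrophage list 5 of 19 rose, with a median of 1.22. Itgam, the integrin chain CD11b, read 7.25 and 7.19 without IMQ and 10.05 and 9.78 with it, and rose by 2.69 ± 0.15 (adjusted p = 0.0232). Adgre1, the macrophage marker F4/80, rose by 2.12, Ms4a7 by 1.96, the scavenger receptor gene Msr1 by 1.26 and the complement gene C1qc by 1.22. Further genes of phagocytes rose that were on no list and were picked after their values were seen: Itgb2 (1.68), the partner chain of Itgam, the NADPH oxidase genes Cybb (1.38) and Ncf1 (1.14), the signalling adaptor gene Tyrobp (1.49) and Clec4n (1.91). From the mast cell list Hdc, the histamine-forming decarboxylase, was the 1 gene of 11 that rose, by 1.95 ± 0.21 (adjusted p = 0.0425), and from the list of dendritic epidermal T and NK cells it was Fcer1g, an adaptor shared with myeloid cells, 1 of 14, by 1.45.

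In the list of Toll-like receptors, to which the target of imiquimod belongs, and their adaptors 4 of 15 genes rose, with a median of 0.94. Tlr13 rose by 2.41, Tlr1 by 1.94, Tlr8 by 1.72 and Unc93b1, the carrier of the endosomal receptors, by 1.58 ± 0.17 (adjusted p = 0.0425). Tlr7 itself read 5.83 and 5.59 without IMQ and 7.24 and 6.94 with it, a difference of 1.38 ± 0.17 that missed the threshold (adjusted p = 0.0555). The type I interferon list, downstream of these receptors in other settings, had a median of -0.07 and 0 of 20 called (1 higher and 2 lower at an unadjusted p under 0.05). A ligand of the EGF receptor was higher on both IMQ arrays without passing, namely Hbegf (2.14, adjusted p = 0.0780). Nrg1 and Hgf, on no list and picked after their values were seen, rose by 2.07 and 1.37.

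**Figure D3:**
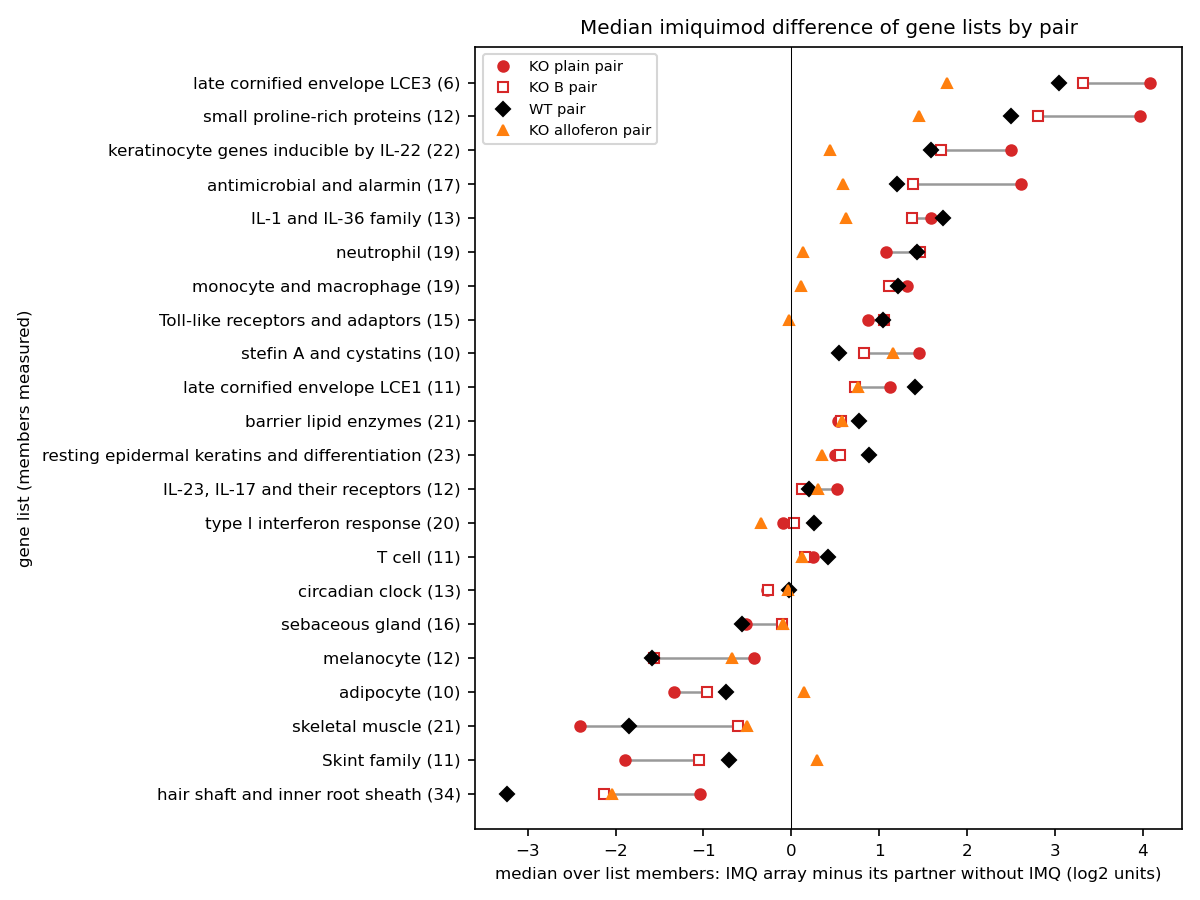
Median IMQ difference over the members of 22 gene lists, in log2 units, in the plain knockout pair (filled red circles), the B pair (open red squares), the wild-type pair (black diamonds) and the knockout pair with alloferon (orange triangles); the number of measured members is in brackets. The LCE3 list lies at 4.08 in the plain pair, 3.32 in the B pair, 3.05 in the wild-type pair and 1.77 in the alloferon pair.

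Genes that fell were few. Mrgprb3, a Mas-related G protein-coupled receptor, read 8.17 and 6.90 without IMQ and 3.42 and 3.51 with it, and fell by 4.07 ± 0.42 (adjusted p = 0.0414). Dapl1 read 9.21 and 9.72 without IMQ and 6.00 and 6.49 with it, and fell by 3.22 ± 0.25 (adjusted p = 0.0296). Serpina3b (-2.80), Fcgbp (-1.75), the syntrophin gene Sntb1 (-1.33) and Il12rb2 (-1.16), which encodes a chain of the IL-12 receptor, also fell. The genes next in order of p were Wfdc21 (-1.89, adjusted p = 0.0543) and D7Ertd443e (-1.08, adjusted p = 0.0536), which did not pass. Skint genes encode immunoglobulin-like surface proteins of keratinocytes, of which Skint1 is known for the selection of dendritic epidermal T cells. Of 11 Skint genes 2 fell and 0 rose, with a median of -1.47: Skint9 read 7.84 and 7.01 without IMQ and 4.50 and 4.49 with it (-2.93 ± 0.29, adjusted p = 0.0394), and Skint10 fell by 1.92. Skint5 had the widest difference of the family, at 7.08 and 5.23 without IMQ and 2.68 and 1.93 with it, and did not pass (-3.85, adjusted p = 0.100). Skint1 measured -0.67 (adjusted p = 0.291).

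Most hair and muscle genes were lower with IMQ within both knockout pairs without alloferon. The median level of each list differed widely between the control arrays, and that of the hair list also between the IMQ arrays. The 34 genes of hair shaft and inner root sheath had a median level of 6.58 on KO_CTRL, 9.34 on KO_CTRL-B, 5.47 on KO_IMQ and 7.30 on KO_IMQ_B, so the plain control lay below the B array with IMQ, and 0 of 34 passed limma's test (1 higher and 2 lower at an unadjusted p under 0.05). Of the 34, 30 were lower with IMQ in both knockout pairs without alloferon, as 31.8% of all genes were, and 2 were higher in the wild-type pair and 1 in the alloferon pair. Wholly lower on the IMQ arrays were 5 of the 34 hair genes, where 22.3% of all genes were, and 1 was wholly higher. Summed on the linear scale the 34 gave 6685 and 41190 without IMQ and 2150 and 9949 with it. Krt71, an inner root sheath keratin, read 9.66 and 12.18 without IMQ and 4.59 and 10.44 with it (-3.40 ± 2.0, adjusted p = 0.556). The genes on which the pairs disagreed most were hair keratin-associated proteins and Serpinb6d: Krtap16-3 read 2.06 and 8.27 without IMQ and 2.79 and 3.65 with it, so it was slightly higher with IMQ in the plain pair and far lower in the B pair, and Serpinb6d read 10.57 and 6.25 without IMQ and 5.32 and 5.91 with it.

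The 21 skeletal muscle genes stood out on KO_CTRL, with a median level of 10.81 there against 8.27 on KO_CTRL-B, 8.36 on KO_IMQ and 8.04 on KO_IMQ_B. Their summed linear level was 49666 and 13083 without IMQ and 10829 and 8010 with it, and 0 of 21 passed (5 lower at an unadjusted p under 0.05). Of the 21, 18 were lower with IMQ in both of these knockout pairs, 0 were higher in the wild-type pair and 2 in the alloferon pair. Wholly lower on the IMQ arrays were 17 of the 21, where 22.3% of all genes were. Myh4, a fast muscle myosin, read 12.88 and 9.43 without IMQ and 8.36 and 5.63 with it. The 10 adipocyte genes were lower with IMQ in both pairs, at medians of 8.71 and 7.84 without IMQ and 7.49 and 6.99 with it (summed linear level 10923 and 5498 against 4079 and 2885), and 0 of 10 passed (9 lower at an unadjusted p under 0.05). All 10 adipocyte genes were wholly lower on the IMQ arrays. Of the 10, 1 was higher in the wild-type pair (median difference -0.74) and 6 were higher in the alloferon pair (median difference 0.14). In the knockout pairs without alloferon the median levels of muscle and fat genes were thus lower with IMQ, most in the plain pair. The part of hair, muscle and fat in the results above was not tested.

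**Figure D4:**
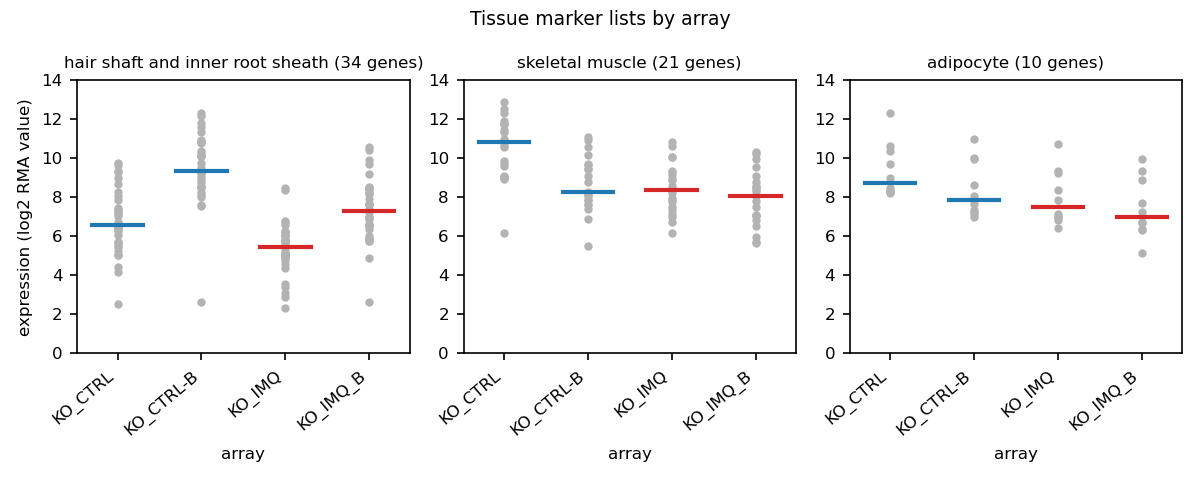
Log2 expression value (y axis) of each member of the hair, skeletal muscle and adipocyte lists (grey points) on the 4 arrays (x axis), with the list median as a bar, blue without IMQ and red with it. The hair median is 9.34 on KO_CTRL-B and 6.58 on KO_CTRL, and the muscle median is 10.81 on KO_CTRL and between 8.04 and 8.36 on the other arrays.

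The wild-type pair asks whether the same genes differ with IMQ in mice labelled wild type. It has no replicate and shares no array with the comparison. All 138 genes called higher in the knockout were higher in the wild-type pair, where 47.4% of all genes were higher, with a median of 1.80 log2 units against 1.93 in the knockout. All 14 called lower were lower there, as were 52.5% of all genes, with a median of -2.10 against -2.19. The wild-type difference was at least as large as the knockout mean for 60 of the 138 and 7 of the 14. The response itself differed between genotypes at 0 of 22180 genes by limma's interaction contrast (an unadjusted p under 0.05 was found for 721 genes, 3.25%), a test in which the single wild-type arrays are assumed to vary like the knockout arrays.

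Single genes show how close or how far the genotypes lay. Il1b read 4.91 on WT_CTRL and 8.54 on WT_IMQ, a difference within 0.02 of the knockout mean (knockout minus wild type -0.02 ± 0.57). Sprr1b gave -0.14 ± 0.23 and S100a8 0.64 ± 0.40 in the same contrast. For Skint9 the wild-type pair read 7.16 and 6.46, so the knockout difference lay further down (knockout minus wild type -2.23 ± 0.50), and for Serpinb3d it read 4.64 and 5.13 (1.59 ± 0.33). Lce3b (1.80 ± 0.65) and Lce3a (1.76 ± 0.75) also measured more in the knockout. None of these differences passed after adjustment. The IL-22-inducible list had a median of 1.59 in the wild-type pair against 2.10 in the knockout. Its knockout pairs lay apart, at 2.50 in the plain pair and 1.70 in the B pair, the latter close to wild type. Core genes that moved by at least 1 log2 unit the other way in the wild-type pair numbered 21 of 13708, in a pair where 2.50% of all genes were higher and 2.12% lower by that much. They included the lipoxygenase gene Alox8, at 6.06 and 8.38 without IMQ and 9.37 and 8.39 with it in the knockout against 7.76 and 6.62 in wild type, and the muscle gene Csrp3, at 6.98 and 6.81 against 7.88 and 7.62, and 7.24 and 6.24 in wild type.

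**Figure D5:**
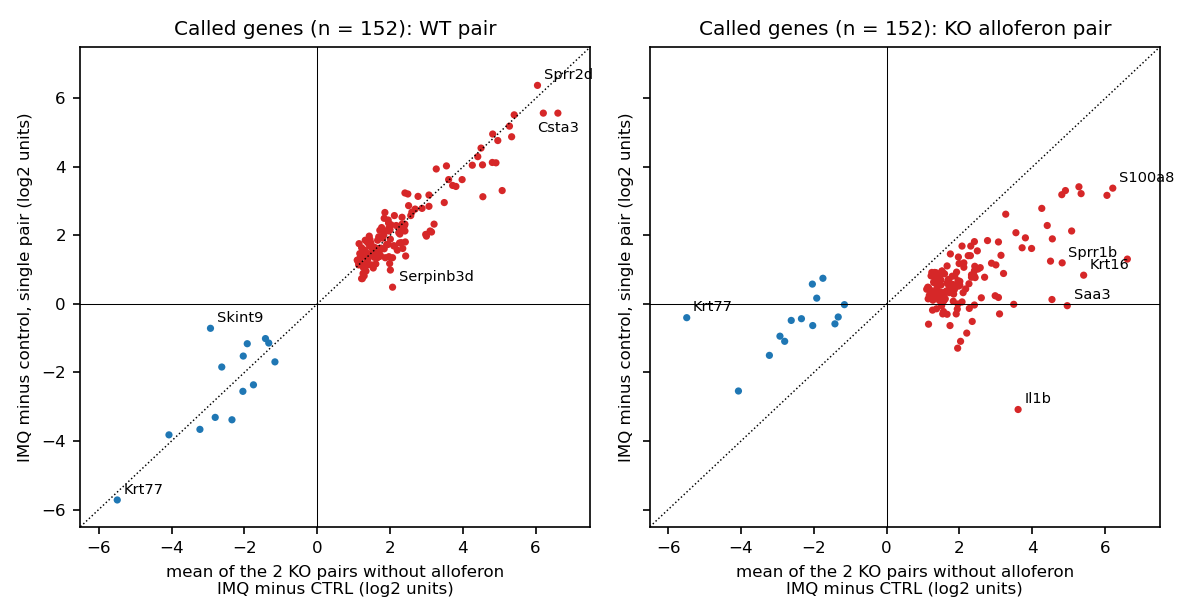
The 152 called genes, with the mean IMQ difference of both knockout pairs on the x axis and the difference in the wild-type pair (left) or the knockout pair with alloferon (right) on the y axis, in log2 units; red genes were called higher, blue lower, and the dotted line marks equal differences. In the wild-type panel the points scatter about the line, with Skint9 and Serpinb3d among those away from it. In the alloferon panel all 152 lie nearer to 0 than the line, or across 0.

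In the knockout pair with alloferon the same genes differed less between its arrays. Of the 138 called higher 117 were higher in that pair (84.8%, where 50.1% of all genes were), with a median of 0.59, and 11 of the 14 called lower were lower (78.6%, against 49.9% of all genes), with a median of -0.45. None of the 152 differed as much as in the pairs without alloferon. Both arrays of that pair contribute: KO_Allo, which had no IMQ, was above both control arrays for 135 of the 138 (97.8%, against 32.4% of all genes), and KO_IMQ_Allo was below both IMQ arrays for 119 (86.2%, against 35.3%). For comparison, WT_CTRL was above both knockout controls for 22 of the 138 (15.9%, against 27.8% of all genes) and below both for 80 (58%, against 31.1%). WT_IMQ was below both knockout IMQ arrays for 96 (69.6%, against 39% of all genes). These shares describe genes chosen for low control and high IMQ levels, which can favour values in between on a further array. For the 138 genes WT_IMQ was mostly below both knockout IMQ arrays, but WT_CTRL was more often below both knockout controls than above both. The part of this choice in the shares for KO_Allo and KO_IMQ_Allo was not tested.

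Krt16 read 10.59 on KO_Allo and 11.43 on KO_IMQ_Allo, so the array without IMQ was already near the level of the IMQ arrays, and Krt6b was likewise at 11.83 and 12.12. For S100a8, at 7.92 and 11.30, the gap between the arrays remained wide. Saa3 read 7.93 and 7.87 and Tmprss11b 6.00 and 6.12, with nearly no difference. Il1b ran the other way, at 7.86 on KO_Allo and 4.78 on KO_IMQ_Allo, as did the macrophage chemokine gene Ccl3, at 8.03 and 4.86, the collagenase gene Mmp13, at 6.54 and 4.23, and the lectin gene Clec4e, at 6.05 and 4.54. Of the core genes 50 moved the other way by at least 1 log2 unit in this pair, in which 0.771% of all genes were higher and 0.938% lower by that much. The response differed from that without alloferon at 0 of 22180 genes by the interaction contrast (1212 with an unadjusted p under 0.05, 5.46%). The smallest adjusted p was 0.351, for Sprr1b, whose difference was 3.62 ± 0.23 log2 units larger without alloferon. With 1 array for each label, alloferon and the particular skin sampled cannot be told apart. Whether the labels of KO_Allo and KO_IMQ_Allo were exchanged was not tested. In this pair 117 of the 138 genes called higher and 11 of the 14 called lower differed in the same direction as without alloferon. S100a8, at 7.92 on KO_Allo and 11.30 on KO_IMQ_Allo, and Sprr2d, at 6.95 and 10.12, are among them. Il1b, Ccl3 and Mmp13 differed in the other direction and were named for that reason.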

How the data were processed

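For 41345 probe sets on each of 8 Affymetrix arrays the authors deposited log2 expression values. Per the submitters' processing notes these are RMA values from Affymetrix Power Tools; R 3.3.2 is also listed, with no role. RMA (robust multi-array average) gives the arrays a common distribution, removes a shift shared by most genes and compresses differences of dim genes. Array medians lay within 0.0497 log2 units of each other. The files hold no counts, and the number of arrays limits the precision.

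Probe sets with 1 gene symbol in the platform annotation (23521) were used; 1814 had several symbols and 16010 none. Of these 23521, 23328 matched the RefSeq table of GRCm38.p6 by Entrez identifier and 0 symbols changed, so older names such as Il1f6 stay. Each of the 22180 genes was represented by its probe set with the highest mean over the 8 arrays (1082 genes had more than 1), with no filter on dim genes.

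The main fit was limma 3.58.1 in R 4.3.3 (lmFit, eBayes) on 2 arrays against 2, without a block for the letter, with Benjamini-Hochberg adjustment over all genes and calls at an adjusted p under 0.05. It has 2 residual degrees of freedom, and an exact permutation test of 2 against 2 cannot go below p = 0.3333. The variance prior that eBayes estimates over all genes adds 3.078 degrees of freedom, so each standard error is in part shared across genes. Errors after ± are limma's standard errors. The responses were compared with the wild-type pair and the alloferon pair by interaction contrasts in a fit of all 8 arrays, whose spread comes from the 4 arrays of the comparison. The fit was tested on simulated data.

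Named genes are the 15 largest rises and 15 largest falls among called genes, filled by p; the largest disagreements between the pairs; members of 43 gene lists; and core genes that moved the other way in another pair. Clone-type, olfactory, vomeronasal, immunoglobulin and T cell receptor symbols were left out, except as list members; this left out 1 gene called lower, 5430427M07Rik. Genes marked as picked after their values were seen are named outside these rules, and the counts of named genes below include them. The comparison, the lists and the naming rules were chosen with earlier results of these data known, so list counts are descriptions and no list was tested. Alternatives were the letter as a block, another variance prior, a filter on dim genes, the mean of probe sets, centring, each array left out and the alloferon pair added. Promoter sequences come from RefSeq (GRCm38.p6).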

Additional observations from a re-analysis of the deposited data

How the results depend on the processing

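The count of genes called higher and lower (138 and 14) depended on which arrays were in the fit: leaving out each array in turn gave 0 to 55 higher and 0 to 37 lower. It was 0 and 0 without KO_CTRL (smallest adjusted p 0.0513) and without KO_IMQ (0.0676), 7 and 0 without KO_IMQ_B and 55 and 37 without KO_CTRL-B, in fits with 1 residual degree of freedom. With the alloferon pair added to the fit it was 0 and 0 (smallest adjusted p 0.0649; 1636 and 1457 genes had an unadjusted p under 0.05). With a trended, robust prior it was 227 and 30, without dim genes 195 and 19, with the mean of probe sets 134 and 14 and with centred arrays 159 and 14. All 152 genes kept their direction wherever they were refitted. When an array is left out this was fixed in advance, since the arrays of these genes do not overlap between the groups. The block and the other prior leave the difference itself unchanged, so these fits could not turn it either. Apart from the smaller number of samples in the fits that leave out an array, the cause of the moves in the counts was not tested. The letter as a replicate block gave 234 higher and 65 lower, among them all 152. Of the 44 genes named here as not passing, 15 passed with it: Krt6a, Krt6b, Rptn, Lcn2, Il1f5, Tlr7, Sprr2g, Sprr2h, Skint5, Wfdc21, D7Ertd443e, Mmp13, Myh4, Cxcl13 and Tnc, with Krt6b at an adjusted p of 0.0271 and Myh4 at 0.0108. The deviations of same-letter arrays correlated at 0.332 across genes, but with 2 pairs and no label that explains the letter the arrays share only a letter. Both differences of the response, from wild type and from the alloferon pair, stayed at 0 genes under all alternatives run. The core response of 6665 higher and 7043 lower genes became 3906 and 3694 without dim genes, where fewer genes were tested, 868 and 517 at 0.5 log2 units or more in each pair and 297 and 100 at 1 or more.

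Of the 86 called genes named here, 86 stayed called with the block, 85 with the other prior, 73 of 73 refitted without dim genes, 27 without KO_CTRL-B, 5 without KO_IMQ_B and 0 without KO_CTRL or KO_IMQ. Of the 44 not called, 4 passed with the other prior, 6 of 29 without dim genes, 2 with centred arrays, 5 without KO_CTRL-B and 1 without KO_IMQ_B. The direction turned for a few genes that did not pass. Krt10 measured 0.01 with centred arrays and -0.20 to 0.16 when single arrays were left out. Over the same leave-outs Il17a ranged from -0.08 to 0.62, Il22ra1 from -0.01 to 0.30, Lor from -0.51 to 0.17 and Krtap16-3 from -5.04 to 1.17. The median of the hair list ranged from -3.36 without KO_CTRL to -0.21 without KO_CTRL-B.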

Other observations

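Of 43 gene lists, 24 had 0 members called in the knockout skin without alloferon, where 0.685% of all genes were called. Among them was the mitosis and DNA replication list, with a median difference of 0.19 log2 units over 24 genes (0.26 in the plain pair, 0.16 in the B pair and -0.21 in the wild-type pair) and 1 gene higher at an unadjusted limma p under 0.05. The T cell list had a median of 0.15 over 11 genes, the dendritic and Langerhans cell list -0.14 over 13 and the B and plasma cell list -0.08 over 5. The collagen and fibroblast list lay at 0.10 over 13 genes and the endothelial list at 0.33 over 11. The circadian clock list lay at -0.29 over 13, with 8 genes wholly lower on the IMQ arrays, where 22.3% of all genes were. The melanocyte list lay at -1.0 over 12 genes, at -0.43 in the plain pair and -1.56 in the B pair.

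Chemokines varied between the IMQ arrays. Of 10 neutrophil chemoattractants 0 passed limma's test (6 higher at an unadjusted p under 0.05), with a median of 0.64. Cxcl2, a ligand of Cxcr2, read 5.04 and 5.46 without IMQ and 6.36 on KO_IMQ and 7.97 on KO_IMQ_B (adjusted p = 0.274). Cxcl13, which attracts B cells, was higher on the other array, at 6.59 and 5.88 without IMQ and 9.86 on KO_IMQ and 8.03 on KO_IMQ_B (adjusted p = 0.198). Both genes were above the controls on both IMQ arrays, and the arrays differed in opposite order.

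In matrix remodelling 1 of 16 genes was called: Timp1, an inhibitor of metalloproteinases, rose from 4.67 and 5.11 to 7.31 and 7.17 (2.35 ± 0.19, limma adjusted p = 0.0298). Tnc, which encodes the wound matrix protein tenascin C, read 7.07 and 8.21 without IMQ and 10.89 and 10.61 with it (3.11 ± 0.39, adjusted p = 0.0555). Of the 138 genes called higher 90 were on no list. Picked after their values were seen, these include Gsta4, a glutathione transferase of lipid peroxidation products, which read 6.10 and 5.93 without IMQ and 9.34 and 8.89 with it (3.10 ± 0.19, adjusted p = 0.0232), the peroxide-forming oxidase gene Duox1 (1.87), the lactoperoxidase gene Lpo (2.30), the peptidoglycan recognition gene Pglyrp3 (2.12) and the gasdermin gene Gsdmc3 (2.43, 1 of 11 gasdermin genes).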
